A study of Mus musculus with 52 samples.

Results

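Selenom, Inpp5j and Pla2g3 are 3 neighbouring protein-coding genes on mouse chromosome 11 that lie between 135 and 161 kb from the transcription start of Tug1, a long noncoding RNA gene, on the side of the Tug1 gene body. They are 3 of the 39144 genes listed in the expression tables of the series, and were chosen by name, as neighbours whose expression in the authors' comparisons of Tug1-/- with wild-type mice had been seen to be higher. The same comparisons are therefore given here as a description, with no test. The values used here are the authors' means for each genotype and tissue. The authors' standard errors and p-values belong to their own comparisons and were not used, so no spread between mice is given. The tables list no value of a single library, so an overlap of groups cannot be given.

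RNA was sequenced after poly(A) selection from 46 samples that stand behind these tables, all labelled male. Testes came from 4 wild-type, 4 Tug1-/- and 3 rescue mice and prostate from 3 wild-type and 2 Tug1-/- mice. Spleen, liver, heart and eyes had 3 samples of each genotype, as did mouse embryonic fibroblasts (MEFs, primary cells grown from littermate embryos of heterozygous crosses). In the Tug1-/- allele (Tug1_tm1.1Vlcg) a lacZ reporter takes the place of most of Tug1, and only the first exon and the promoter remain. Tissues and MEFs carry the label of a mixed C57BL/6J/129S6 background (N3-C57BL/6J) without the Neo cassette, in both genotypes. In testes the wild-type label is C57BL/6J with no Neo, whereas the labels of Tug1-/- and rescue list Neo as well as LacZ. The study's methods describe removal of the neomycin gene by Cre and a colony free of it, so whether these testes mice carried Neo is not settled here. If they did, Neo and genotype cannot be told apart in testes. Rescue mice were Tug1-/- and also carried tg(Tug1), a transgene with a Tug1 isoform short of part of the 5′ region, and CAGs-rtTA3, which drives it under doxycycline given in the food. The age of the adult mice was not given in the sources used here. Brain rows come from libraries outside the 52 samples of the series, and the number and labels of those mice are not known here. F1 hybrid testes (6 samples) were not analysed here.

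Selenom encodes a small selenoprotein of the endoplasmic reticulum with a thioredoxin-like fold. Selenoproteins hold selenocysteine, which the ribosome inserts at a UGA codon that would otherwise end translation. Inpp5j encodes an inositol polyphosphate 5-phosphatase, an enzyme that removes the phosphate at position 5 from phosphoinositides and inositol phosphates and so acts on signalling by PI 3-kinase. Pla2g3 encodes a secreted phospholipase A2 of group III, which is related to the bee venom enzyme, frees fatty acids from phospholipids and is known for its part in sperm maturation in the epididymis.

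By the coordinates of the files (mm10), Selenom (ENSMUSG00000075702.9) spans chr11:3514684-3517351 on the plus strand, Inpp5j (ENSMUSG00000034570.12) chr11:3494375-3504821 on the minus strand and Pla2g3 (ENSMUSG00000034579.17) chr11:3488284-3499350 on the plus strand. GENCODE release M21 gives the same identifiers and spans for all 3. The genes fill 29068 bases from end to end, and the starts of Inpp5j and Selenom point away from each other over 9863 bases. The spans of Pla2g3 and Inpp5j overlap by 4976 bases on opposite strands. Of 3 Pla2g3 transcripts, 1 has an exon over an Inpp5j exon and is annotated as a target of nonsense-mediated decay. The coding Pla2g3 transcript ends 209 bases before Inpp5j. Exons of the genes share 401 bases, which is 8.54% of the exonic bases of Pla2g3 and 7.88% of those of Inpp5j, and none of these bases is coding in Inpp5j. The library kit does not mark strand, so reads from the shared bases cannot be assigned to 1 of the genes by their orientation. Selenom and Smtn, the gene of the smooth muscle protein smoothelin, end 172 bases from each other and are read in opposite directions. Tug1 itself lies at chr11:3639785-3649673 on the minus strand, and 99173 bases separate it from Smtn.

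**Figure D1:**
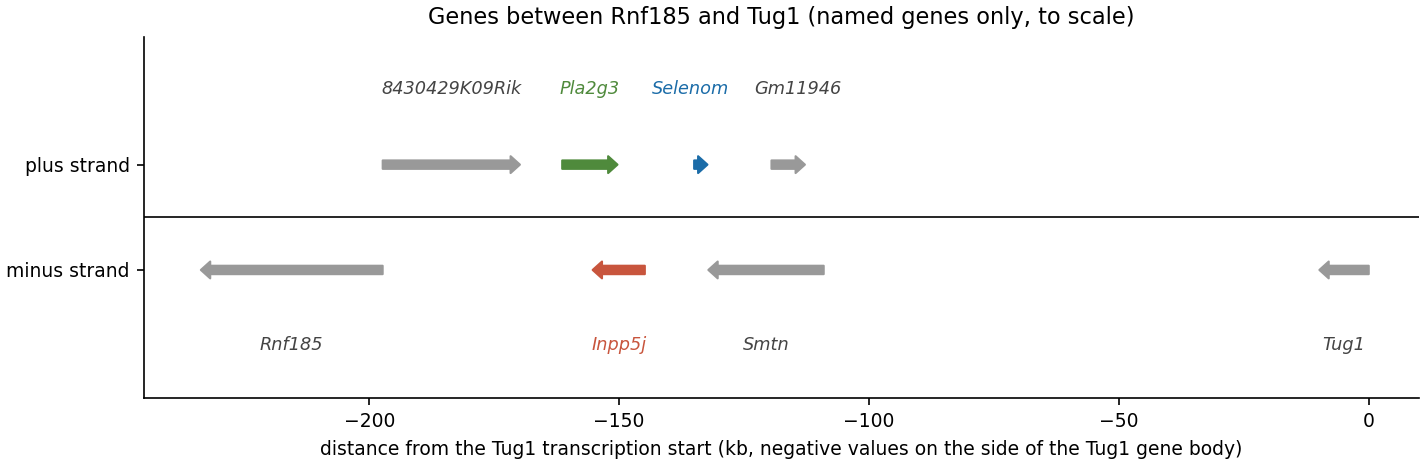
Positions of the named genes from Rnf185 to Tug1, to scale, with distance from the Tug1 transcription start in kb on the x axis and strand on the y axis; arrows point in the direction of transcription. Pla2g3, Inpp5j and Selenom start 161, 145 and 135 kb from the Tug1 start, between Rnf185 and Smtn.

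The codon that makes Selenom a selenoprotein is shown because its transcript would otherwise be read as ending there. It is codon 48 of 145 in the coding transcript and lies in exon 2 of 5, at chr11:3516273-3516275 (GRCm38, plus strand). The 36 coding bases of that exon, chr11:3516261-3516296, are given from the GENCODE M21 transcript 5′ to 3′ with the selenocysteine codon in capitals.
Selenom coding exon: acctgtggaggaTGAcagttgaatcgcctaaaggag
This is the only in-frame TGA of the coding sequence as annotated, without the final stop codon.

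The promoter is shown because the results concern the amount of RNA of this gene. The table of RefSeq promoters used here (GRCm38.p6) was matched for 1 of the 3 genes, Selenom, at chr11:3514434-3514733 on the plus strand, from 250 bases before the start to 50 bases after it. Capitals mark the letters TATAAA, found once, on the plus strand, with the first letter at position -144 counted from the start.
Selenom promoter: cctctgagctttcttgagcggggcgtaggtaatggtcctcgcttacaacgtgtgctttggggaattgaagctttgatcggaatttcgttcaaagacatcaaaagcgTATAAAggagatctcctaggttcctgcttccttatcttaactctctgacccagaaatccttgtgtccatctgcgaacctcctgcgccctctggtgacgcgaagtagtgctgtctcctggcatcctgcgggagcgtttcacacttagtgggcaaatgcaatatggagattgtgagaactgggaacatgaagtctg
The coding transcript of GENCODE starts 183 bases further on, so the window is that of the RefSeq start. On either strand, TATAAA is held by 13.6% of the 32851 promoters of the table. The letters CCAAT (37.4% of promoters), GGGCGG (35.7%) and CACGTG (7.15%) were also searched on both strands and are not in this window. G and C make up 49.3% of the window against a median of 52.7% over all promoters, and it holds 13 CpG pairs against a median of 7.

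In wild-type samples the 3 genes had different patterns over the tissues. Levels are the authors' group means in TPM (transcripts per 1000000), a unit that takes gene length and library depth into account. It is a share of each library, so levels in different tissues also depend on the other RNA there. In wild type, for example, 3 marker genes held 120615 TPM in liver and 3 others 3015 TPM in spleen. Spans between tissues are therefore approximate, and brain comes from libraries outside the series. Selenom was the most abundant of the 3 in each of the 8 tissues. Its wild-type mean was 222 TPM in MEFs, 199 TPM in brain, 102 TPM in eyes, 42.5 TPM in heart, 30.1 TPM in spleen, 29.7 TPM in prostate, 6.24 TPM in testes and 2.25 TPM in liver. The highest and the lowest tissue differ by 98.4 times, while spleen and prostate lie next to each other and cannot be ranked without a spread.

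Inpp5j RNA was concentrated in brain. Its wild-type mean was 65.8 TPM in brain, 10.2 TPM in eyes, 7.77 TPM in heart, 2.28 TPM in testes, 0.966 TPM in prostate, 0.853 TPM in spleen, 0.0599 TPM in MEFs and 0.0287 TPM in liver. The last pair of values rests on means of 4.91 and 3.94 normalized counts per library, so Inpp5j was close to undetected in MEFs and liver, and the 2295-fold span from brain to liver is poorly fixed at its lower end. In brain Inpp5j held the third highest place of 10 genes for 5-phosphatases, with 11.3% of their summed TPM, and in testes, prostate, spleen, liver and MEFs it held the lowest.

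Pla2g3 was low throughout. Its wild-type mean was 4.69 TPM in brain, 2.33 TPM in eyes, 2.31 TPM in testes, 0.354 TPM in spleen, 0.279 TPM in heart, 0.217 TPM in prostate and 0.0756 TPM in MEFs. Liver has no row for Pla2g3, since genes with under 3 reads in all replicates of a tissue had been removed by the authors. The mean count behind Pla2g3 was 197 in eyes and 111 in brain, but 40.6 in heart, 32.0 in spleen, 12.7 in prostate and 6.07 in MEFs, so its values in the last 4 tissues have little depth. The table of testes gives no mean count.

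**Figure D2:**
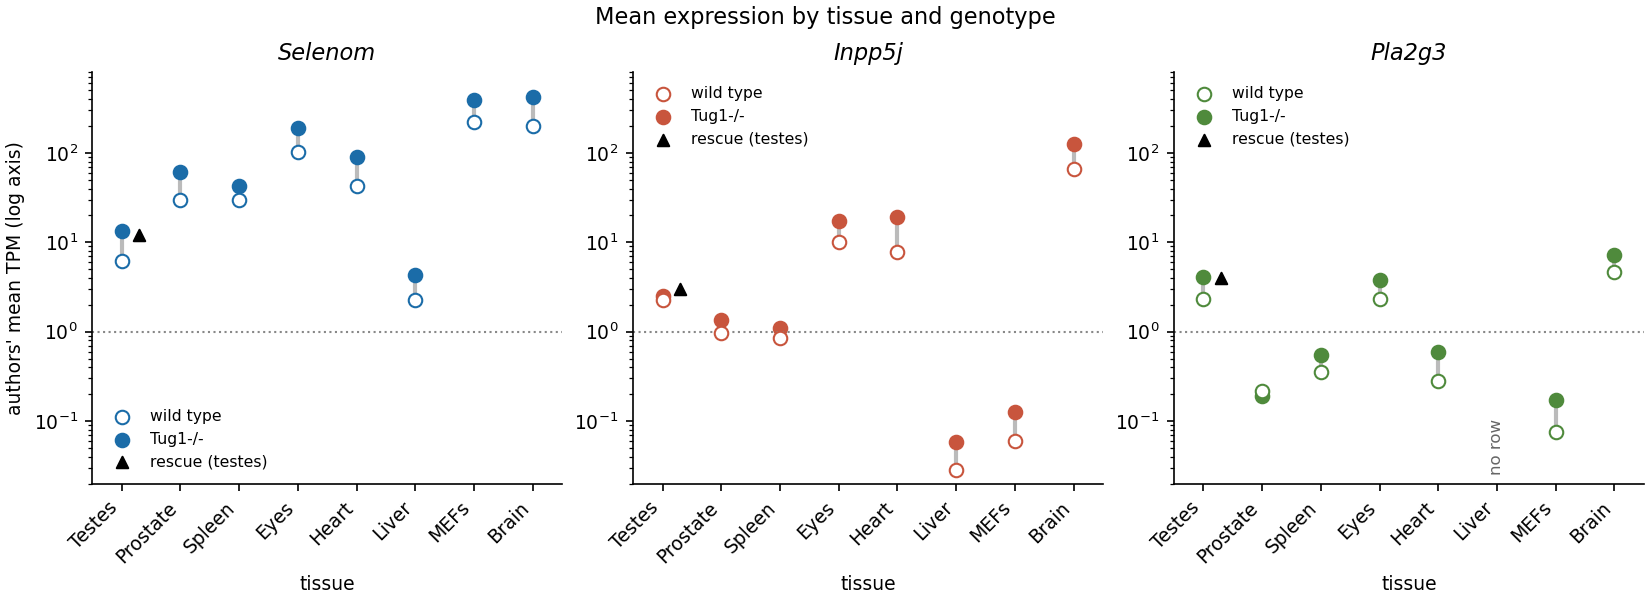
Authors' mean TPM (log axis) of Selenom, Inpp5j and Pla2g3 in 8 tissues, with open circles for wild type, filled circles for Tug1-/- and a triangle for rescue testes; the dotted line marks 1 TPM and each point is a group mean with no error available. The Tug1-/- point is the higher of the pair in all tissues but prostate for Pla2g3.

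Tug1 RNA was nearly lost in each Tug1-/- group, which checks the labels. Its mean went from between 10.1 and 57.5 TPM in wild type to at most 0.237 TPM in Tug1-/- samples of the 7 tissues other than testes, and from 40.1 to 0.885 TPM in testes. Tissue identity was checked with 3 markers each, such as Prm1 and Tnp1 for testes or Alb for liver, and all 3 had rows in each tissue. Their summed level ran from 3015 to 120615 TPM in wild type and from 2290 to 127735 TPM in Tug1-/- samples. In 7 of 8 tissues none of the 3 markers differed by over 1.5 times, but in prostate Defb50 (1099 and 1748 TPM) and Msmb (9.65 and 18.3 TPM) were higher in Tug1-/- mice beside Pbsn (65995 and 58591 TPM). Of 11 further marker lists for other cell types, those that reached 1 TPM and whose summed level differed by over 1.5 times between genotypes numbered 4 in testes, 3 in prostate, 3 in liver, 2 in eyes and 1 in spleen, and 0 in heart, MEFs and brain. The gene tables cover 12121 to 22378 genes at 1 TPM or more, and the mean normalized counts sum over genes to 17.6 (brain) to 48.3 (eyes), in units of 1000000 counts.

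Selenom was higher in Tug1-/- samples in all 8 tissues. Its mean went from 6.24 to 13.3 TPM in testes, from 29.7 to 60.6 TPM in prostate, from 42.5 to 90.9 TPM in heart and from 199 to 424 TPM in brain. In these 4 tissues the log2 ratio of means (Tug1-/- over wild type, with 0.1 TPM added to each mean) was 1.08, 1.03, 1.09 and 1.09. The mean went from 102 to 189 TPM in eyes, from 2.25 to 4.32 TPM in liver and from 222 to 387 TPM in MEFs, with log2 ratios of 0.89, 0.91 and 0.80. Spleen had the least change, from 30.1 to 42.8 TPM (log2 ratio 0.51). Selenom thus kept its 8 log2 ratios within a range of 0.59 while its level varied by 98.4 times in wild type and 98.2 times in Tug1-/- samples. The plain ratio of means was 2.14 in testes, 2.04 in prostate, 2.14 in heart and 2.13 in brain, and 1.42 in spleen. Between 87.1 (liver) and 4660 (MEFs) normalized counts per library stand behind these means in the 7 tissues with a mean count.

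The mean of Inpp5j was higher in Tug1-/- samples in all 8 tissues, by ratios that differed between them. Its mean went from 65.8 to 126 TPM in brain (log2 ratio 0.93), from 10.2 to 17.5 TPM in eyes (0.77) and from 7.77 to 19.1 TPM in heart (1.28). The log2 ratio in heart was the highest of all values for the 3 genes. Testes had the lowest log2 ratio of Inpp5j, 0.12, with a wild-type mean of 2.28 TPM and a Tug1-/- mean of 2.49 TPM. In the same libraries the log2 ratios were 1.08 for Selenom and 0.80 for Pla2g3. In prostate (0.966 and 1.35 TPM) and spleen (0.853 and 1.11 TPM) the log2 ratios were 0.44 and 0.34. In liver (0.0287 and 0.0580 TPM) and MEFs (0.0599 and 0.126 TPM) both means were too low for a ratio to be read, and the added 0.1 TPM decides the log2 ratios, which were 0.30 and 0.50 with it and 1.02 and 1.07 without it.

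Pla2g3 was higher in Tug1-/- samples in the 3 tissues where it reached 1 TPM. Its mean went from 2.31 to 4.10 TPM in testes (log2 ratio 0.80), from 2.33 to 3.75 TPM in eyes (0.66) and from 4.69 to 7.27 TPM in brain (0.62). Below 1 TPM it stood at 0.279 and 0.586 TPM in heart (0.86), at 0.354 and 0.555 TPM in spleen (0.53) and at 0.0756 and 0.174 TPM in MEFs (0.64). Prostate was the only tissue with a lower mean in Tug1-/- mice, 0.193 against 0.217 TPM (log2 ratio -0.12), on a mean of 12.7 counts.

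Each gene has a value in up to 8 tissues, which gives 23 of 24 possible rows, and 17 of these reached 1 TPM in either genotype. The 6 rows below 1 TPM, 4 of Pla2g3 and 2 of Inpp5j, are not part of the counts that follow. At 1 TPM or more, a ratio above 1.5 in favour of Tug1-/- was found in brain for all 3 genes, where 2.19% of all genes passed the same limit, and in eyes for all 3 (3.19% of all genes). In testes Selenom and Pla2g3 passed it but not Inpp5j (2.75% of all genes). In heart Selenom and Inpp5j passed it (2.08%), and Selenom alone did so in prostate (5.32%), liver (3.37%) and MEFs (3.82%). In spleen neither Selenom nor Inpp5j passed it (5.40%). By gene, this came to 7 of 8 tissues for Selenom, 3 of 6 for Inpp5j and 3 of 3 for Pla2g3. With 1 TPM added to each mean instead of 0.1, Pla2g3 lay under the limit in eyes (log2 ratio 0.51) and brain (0.54), so that 1 of its 3 tissues remained. The genes were chosen on this very contrast, so these counts describe them and nothing is read from the shares. The median log2 ratio of all genes at 1 TPM or more lay between -0.11 (spleen and eyes) and 0.10 (heart). Relative to the median of spleen, the log2 ratio of Selenom there is 0.61 instead of 0.51 and lies above the limit of 1.5, a log2 ratio of 0.58.

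**Figure D3:**
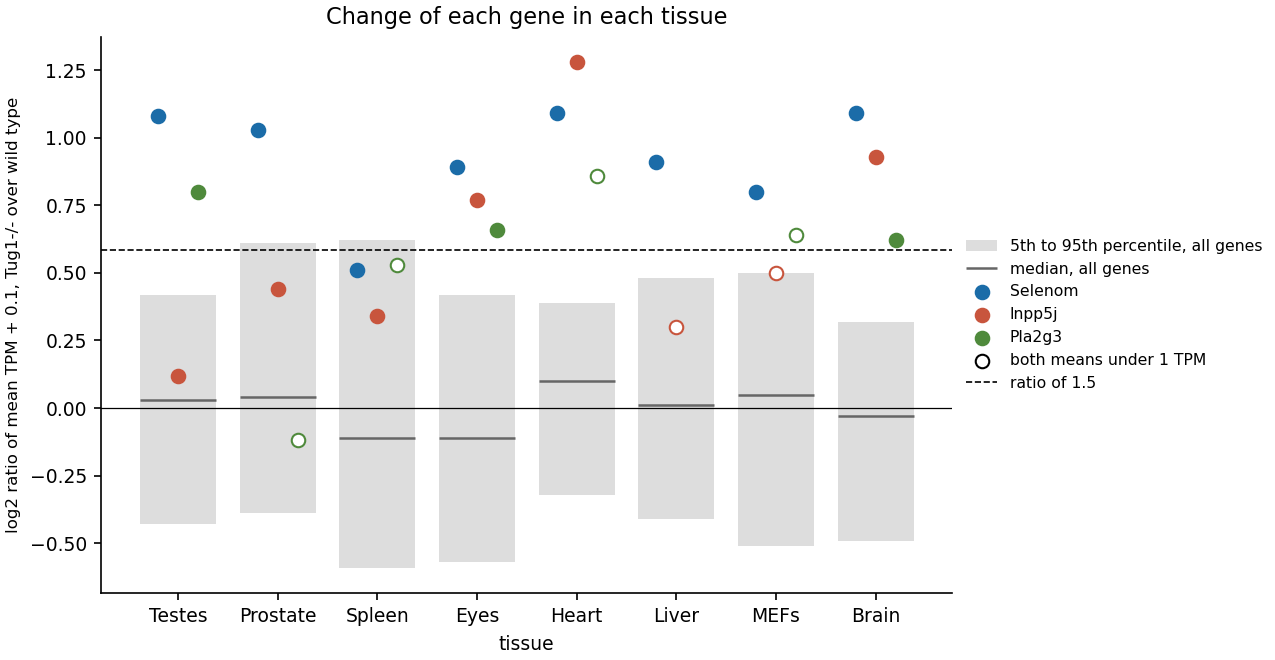
Log2 ratio of mean TPM + 0.1 (Tug1-/- over wild type) of Selenom, Inpp5j and Pla2g3 by tissue; grey boxes span the 5th to the 95th percentile of all genes at 1 TPM or more, grey lines are their medians, open circles mark genes under 1 TPM in both genotypes and the dashed line marks a ratio of 1.5. Selenom lies above the boxes in 7 tissues and inside the box in spleen, while Inpp5j, where it reached 1 TPM, lies inside in testes, prostate and spleen.

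Marker lists of other cell types differed between genotypes in 5 tissues. In eyes the skeletal muscle list (Acta1, Ckm and Myh4) went from 2594 to 4728 TPM in sum, and the erythroid list (Hba-a1, Hbb-bs and Alas2) from 590 to 1816 TPM. In testes the skeletal muscle list went from 1.17 to 24.4 TPM and the Leydig list from 440 to 666 TPM, while the epithelium list went from 121 to 74.2 TPM. The 3 genes of the epididymis list went different ways in testes, Lcn5 from 680 to 0.0155 TPM, Adam7 from 326 to 39.8 TPM and Crisp1 from 427 to 760 TPM, with sums of 1433 and 800 TPM. In prostate the seminal vesicle list went from 19856 to 59286 TPM, the erythroid list from 141 to 257 TPM and the macrophage list from 67.6 to 103 TPM. In spleen the erythroid list went from 19521 to 35130 TPM. In liver the macrophage list went from 79.6 to 119 TPM, the smooth muscle list from 5.13 to 8.57 TPM and the Leydig list, of which 2 of 4 genes have rows, from 8.45 to 35.8 TPM. Their part in the values of Selenom, Inpp5j and Pla2g3 was not tested. In heart and brain, where no list that reached 1 TPM differed by over 1.5 times, the log2 ratios were 1.09 and 1.09 for Selenom and 1.28 and 0.93 for Inpp5j, and in MEFs, likewise without such a list, that of Selenom was 0.80. Pla2g3 reached 1 TPM in only 1 of these tissues, brain, with a log2 ratio of 0.62 (0.54, under the limit of 1.5, with 1 TPM added). Lists there also differed by less than this limit. The macrophage list in heart went from 129 to 179 TPM, and the smooth muscle list in brain from 36.1 to 27.1 TPM. The lists do not cover all cell types, and a change in cell numbers was not tested in these tissues either. In tissue RNA a change in the number of cells of a type cannot be told apart from a change in RNA per cell.

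In rescue testes the means of Selenom and Pla2g3 lay near those of Tug1-/- testes. Selenom stood at 6.24 TPM in wild type, 13.3 TPM in Tug1-/- and 12.1 TPM in rescue testes, so that the rescue mean lay close to the Tug1-/- mean and was 1.93 times the wild-type mean. Pla2g3 stood at 2.31, 4.10 and 4.01 TPM in the same order, with a rescue mean 1.73 times that of wild type. Inpp5j, which hardly differed between wild type and Tug1-/-, had its highest mean in rescue testes (2.28, 2.49 and 2.97 TPM). The log2 ratio of rescue over Tug1-/- was -0.14 for Selenom, -0.03 for Pla2g3 and 0.25 for Inpp5j. The 3 values lay inside the limit of 1.5 in either direction, which 4.65% of all genes at 1 TPM or more passed. The log2 ratio of rescue over wild type was 0.94, 0.77 and 0.37. Both ratios use the rescue libraries, so they are not independent. Tug1 RNA in rescue testes was 1.60 TPM, 4.0% of the wild-type mean, as counted over the annotated gene. Tug1-/- testes, which lack the transgene, had 0.885 TPM by the same count, so not all of the rescue value can be ascribed to the transgene.

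**Figure D4:**
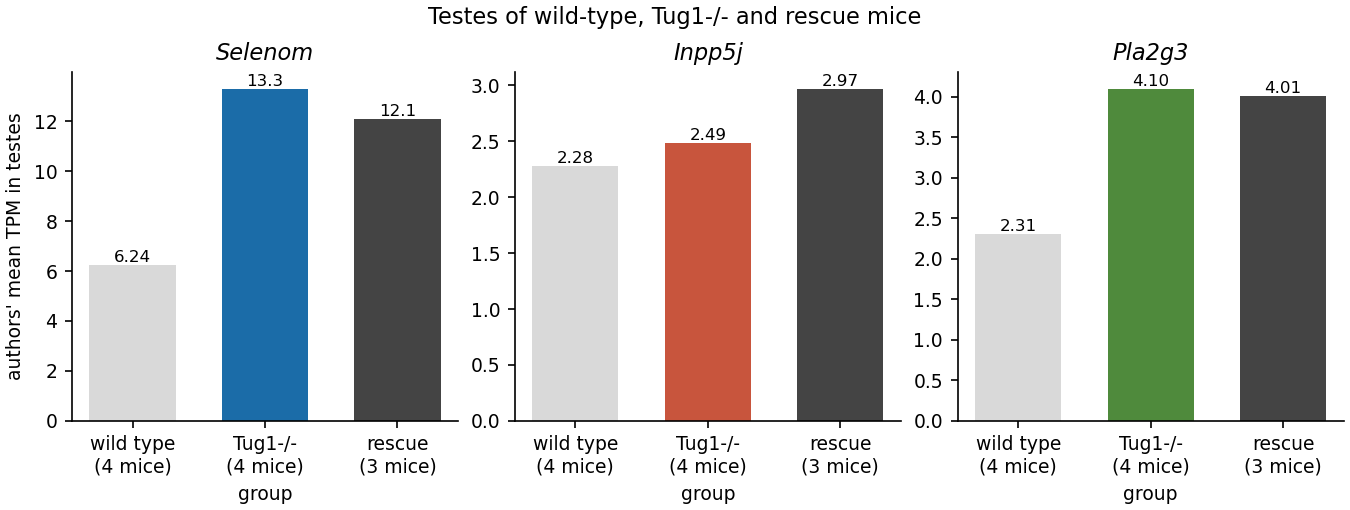
Authors' mean TPM in testes (bars from 0, no error available) of Selenom, Inpp5j and Pla2g3 in wild-type (4 mice), Tug1-/- (4 mice) and rescue mice (3 mice). Selenom (6.24, 13.3 and 12.1 TPM) and Pla2g3 (2.31, 4.10 and 4.01 TPM) have nearly the same mean in rescue as in Tug1-/- testes, while Inpp5j is highest in rescue at 2.97 TPM.

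Other genes of the same families were counted against the limit of 1.5 in both directions. Selenom, Inpp5j and Pla2g3 were themselves chosen on this contrast, so nothing is read from their place beside these genes. Over the 8 tissues together, 3.49% of 133572 gene and tissue pairs at 1 TPM or more were above 1.5 and 3.70% were below 1/1.5. By tissue the share below was 3.51% in testes, 2.67% in prostate, 5.07% in spleen, 4.68% in eyes, 3.94% in brain, 3.91% in MEFs, 2.65% in liver and 2.49% in heart. Besides Selenom, 23 selenoprotein genes were listed, among them glutathione peroxidases, deiodinases and thioredoxin reductases. At 1 TPM or more they gave 157 gene and tissue pairs, of which 3 (1.91%, beside 3.49% of all pairs) were above 1.5, 2 (1.27%, beside 3.70%) were below 1/1.5 and 152 were neither. Their median log2 ratio lay between -0.06 (liver) and 0.09 (heart), next to 0.01 and 0.10 for all genes in these tissues. The 5 pairs were Selenop, the selenium carrier of plasma, in MEFs (24.1 and 12.8 TPM, log2 ratio -0.90), Gpx3, the plasma glutathione peroxidase, in prostate (187 and 317 TPM, 0.76), testes (0.75) and MEFs (-0.60), and Dio2, the enzyme that makes active thyroid hormone, in eyes (10.2 and 15.6 TPM, 0.61). None of the 7 genes listed for the synthesis of selenoproteins, such as Secisbp2 and Eefsec, passed the limit in any of 56 pairs, beside the same shares of all pairs.

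By mean TPM, Selenom stood higher among the selenoprotein genes in Tug1-/- samples than in wild type in 6 of 8 tissues, and at the same place in prostate and liver. In brain it went from the fifth place of 23 in wild type to the second in Tug1-/- mice, and its share of the summed TPM from 5.84% to 11.5%. In MEFs it went from the sixth to the third place of 22 and from 6.74% to 11.7%. In eyes its share went from 3.42% to 5.60% and in heart from 1.98% to 3.78%. In prostate it held place 12 of 23 in both genotypes, with 0.917% and 1.77%, and in liver place 19 of 22, with 0.0235% and 0.0460%.

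The 9 other 5-phosphatase genes, such as Ocrl, Synj1 and Inppl1, all reached 1 TPM in each tissue and none of the 72 pairs passed the limit of 1.5 in either direction, beside 3.49% above and 3.70% below for all genes. Their median log2 ratio lay between -0.15 (eyes) and 0.13 (heart), beside -0.11 and 0.10 for all genes. In heart, where Inpp5j had a log2 ratio of 1.28, the other 9 ranged from 0.01 to 0.22. Inpp5j went there from the seventh to the fourth place of 10 and from 3.12% to 6.59% of their summed TPM. In brain it went from 11.3% to 20.2%.

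Of the 10 other secreted phospholipase A2 genes and the receptor Pla2r1, 34 gene and tissue pairs reached 1 TPM, and 2 (5.88%, beside 3.49% of all pairs) were above 1.5 and 0 (beside 3.70%) below 1/1.5. These were Pla2g1b, the pancreatic enzyme, in spleen (0.0806 and 30.5 TPM, log2 ratio 7.40) and Pla2g2d in testes (1.30 and 2.01 TPM, 0.59). No marker list of pancreas was checked in spleen, and Pla2g2d lies next to the limit (a log2 ratio of 0.58). The median log2 ratio of the list lay between -0.17 (brain) and 0.29 (prostate), beside -0.03 and 0.04 for all genes. In brain Pla2g3 made up 18.0% of the summed TPM of the enzymes in wild type and 25.6% in Tug1-/- mice.

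**Figure D5:**
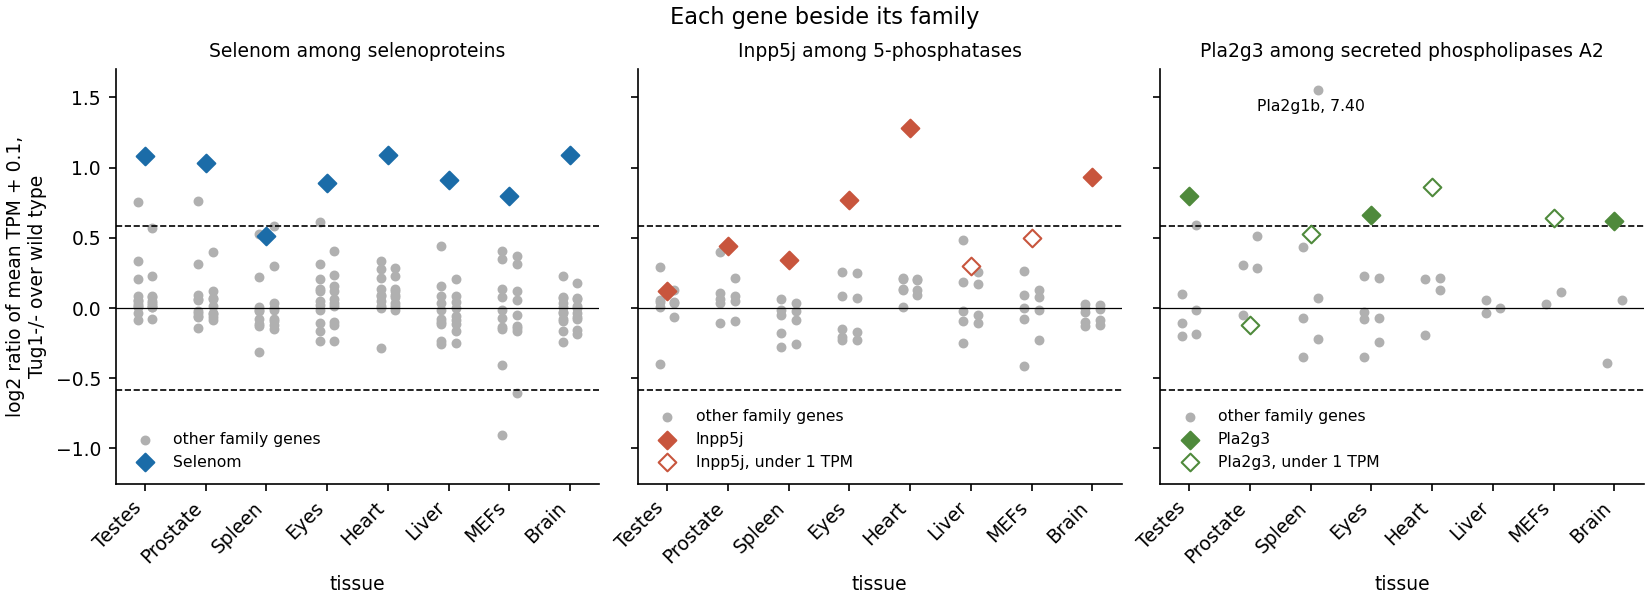
Log2 ratio of mean TPM + 0.1 (Tug1-/- over wild type) by tissue for Selenom, Inpp5j and Pla2g3 (diamonds, open under 1 TPM) and for the other genes of their families at 1 TPM or more (grey points, with the receptor Pla2r1 in the panel of secreted phospholipases A2); dashed lines mark a ratio of 1.5 in either direction, and Pla2g1b in spleen, at 7.40, is drawn at the top edge. Selenom lies above the other selenoproteins in 7 tissues, and Inpp5j, of the 6 tissues where it reached 1 TPM, lies on this scale above the other 5-phosphatases in all but testes, by little in prostate (0.44 against at most 0.40).

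Rnf185, a ubiquitin ligase gene further from Tug1, and Smtn, between Selenom and Tug1, are set beside the 3 genes as neighbours on either side of them. Rnf185 had log2 ratios between 0.81 in spleen and 1.12 in heart, a narrower range than that of Selenom, and a more even level over the tissues (15.7 to 83.4 TPM in wild type). Smtn ran from -0.19 in spleen to 3.14 in testes, where it went from 4.22 to 38.1 TPM. The largest Smtn ratio and the smallest Inpp5j ratio were thus found in the same testes libraries. In spleen, the tissue with a lower Smtn mean in Tug1-/- mice (13.2 and 11.6 TPM), Selenom had its smallest log2 ratio, 0.51. In liver Smtn had a log2 ratio of 0.23 (2.40 and 2.84 TPM) beside 0.91 for Selenom, so their ratios did not go side by side in each tissue. Since Smtn and Selenom end 172 bases apart and the kit does not mark strand, orientation does not separate reads near these ends, and the part of Smtn reads in the Selenom values was not tested. No test of the differences between these genes was possible from means alone.

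Within 25 kb of the 3 genes lie 4 further genes with rows. 8430429K09Rik, which starts next to Rnf185, had log2 ratios of 0.63 to 1.22 in 8 tissues. Gm11946, a noncoding gene inside Smtn on the other strand, reached 1 TPM in testes (0.106 and 4.68 TPM), prostate (1.44 and 4.72 TPM) and MEFs (0.373 and 1.11 TPM) and was below it in the other 4 tissues with a row. The small RNA gene Gm24439 reached it in testes (1.71 and 4.30 TPM) and eyes (1.80 and 1.75 TPM) and the pseudogene Gm11945 in none of its 4 tissues.

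The wild-type profiles over tissues were compared with those of 13456 protein-coding genes as a description, by Pearson's r of log2(mean TPM + 1). The 8 points are tissues and not replicates, brain comes from other libraries, and the lists depend on the measure. By Spearman's rank correlation 2 of the 5 genes named for Selenom, 2 for Inpp5j and 0 for Pla2g3 were still among the most like, and without brain 2, 1 and 3. Most like Selenom were Arhgef17 (r = 0.995), Strn3 (0.991), 2700081O15Rik (0.984), Spry2 (0.983) and Sptbn1 (0.977), which had their lowest level in liver, as Selenom did. Most like Inpp5j were Gsg1l (0.982), Camta1 (0.981), Foxo6 (0.975), Mapt (0.973) and Pak6 (0.970), with their highest level in brain. Most like Pla2g3, over the 7 tissues in which it has a row and 13982 genes, were Apba1 (0.995), Zfp423 (0.992), Cpne5 (0.992), Cldn11 (0.991) and Sptbn4 (0.989), also highest in brain. Among themselves, the profiles of Inpp5j and Pla2g3 had r = 0.80 over 7 tissues, those of Selenom and Inpp5j 0.49 over 8, and those of Selenom and Pla2g3 0.08 over 7.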

How the data were processed

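The authors aligned reads to GRCm38 (mm10 in the submitters' processing notes, with CASAVA 1.8.2, STAR, featureCounts and DESeq2) with GENCODE M16, counted uniquely mapped reads per gene, and deposited group means in TPM. For 7 tissues the authors also deposited a mean normalized count per gene over both genotypes, a signal scaled by library. Strand-specific counting is not given in the sources used here. The deposited fold changes, standard errors, statistics and p-values are the authors' own comparisons and were not used.

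From the means, log2 ratios were computed with 0.1 TPM added. Background counts took genes with at least 1 TPM in either mean and a ratio above 1.5, and genes below 1/1.5 were counted apart. For rescue over Tug1-/- both directions were counted together. With means alone there is no test, error or depth per sample here. Groups follow the labels. Members and lists were chosen with earlier results of these data known. Named genes were the 3 genes, Tug1, Rnf185, Smtn, genes within 25 kb, the 5 protein-coding genes of at least 1 TPM with the most like wild-type profile per gene, and up to 3 genes per family list past 1.5 in either direction. Sequences came from RefSeq and GENCODE M21. The steps were tested on simulated data (Python 3.11.15, numpy 2.4.6, pandas 2.3.3, matplotlib 3.10.9). Alternatives were other pseudocounts, centring, rescaling, filters and limits.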

Additional observations from a re-analysis of the deposited data

How the results depend on the processing

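No paired analysis was possible because the tables list no values of single samples and only the group means were used, and for the same reason no replicate could be left out. Of 116 alternative values of the 29 ratios, 107 stayed on their side of the limit of 1.5 and 0 turned in direction. With 1 TPM added, Pla2g3 fell below the limit in eyes (0.51), heart (0.31), MEFs (0.13) and brain (0.54). With nothing added, Inpp5j passed it in liver (1.02) and MEFs (1.07) and Pla2g3 in spleen (0.65). Centring on the median brought Selenom (0.61) and Pla2g3 (0.64) in spleen above it.

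The number of genes past the limit moved by over 1.5 times in 26 of 36 alternatives. The tissue counts take only genes higher in Tug1-/- samples. Those for rescue over Tug1-/- take both directions together, so they cannot be set beside the tissue counts. Without the filter at 1 TPM it was 1643 in testes, 1838 in prostate, 1677 in spleen, 1402 in eyes, 896 in brain, 880 in heart, 1301 in MEFs, 1198 in liver and 3340 for rescue over Tug1-/-. A limit of 2 gave 200, 346, 373, 178, 151, 87, 200, 132 and 434 in that order. Protein-coding genes alone gave 322 in testes, 538 in prostate, 600 in spleen, 417 in eyes, 105 in brain, 137 in heart, 222 in MEFs and 400 for rescue.

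The genes named as most like in profile depend on the measure. By Spearman's rank correlation, 2 of the 5 of Selenom, 2 of Inpp5j and 0 of Pla2g3 were among the most like (ties included), and without brain 2, 1 and 3. Low counts limit Inpp5j in liver and MEFs and Pla2g3 in heart, spleen, prostate and MEFs.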
